A study of Mus musculus with 5 samples.

Results

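The genes described here are 10 genes typical of endothelial cells, the cells that line blood vessels: Cdh5, Pecam1, Esam, Cldn5, Emcn, Robo4, Egfl7, Rasip1, Sox17 and Sox18. They were taken by symbol from a deposited table of 11194 genes, and 10 of 10 had a row. The table holds sequencing counts for RNA recovered with a rabbit antibody against Staufen1, a protein that binds double-stranded RNA, from muscle stem cells of mice. 3 libraries came from Stau+/+ mice (WT 1 to 3) and 2 from Stau-/- mice (StauKO 1 and 2), and the antibody was used in both genotypes. The series calls the cells quiescent. The sources used here do not give the mice's age or strain, how the allele was made or how the cells were sorted. Every library is an immunoprecipitate. Without input RNA to compare, a count mixes how much of an RNA the cells held with how well it was recovered.

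Endothelial cells hold on to each other through adherens junctions, built around VE-cadherin, and tight junctions, built around claudins. The small GTPase Rap1 and its effectors strengthen these contacts, and guidance receptors of the Robo family and surface sialomucins mark the vessel wall. The SoxF transcription factors, Sox7, Sox17 and Sox18, act in endothelial cells during vessel growth and arterial specification, and ETS family factors switch on many endothelial genes. In skeletal muscle, capillaries run beside the stem cells. The junction genes are typical of those capillaries, whereas SoxF factors are known from muscle stem cells of mice as well.

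Sequences of the genes that the comparison turns on come first. Egfl7, the gene of this group with the smallest p, encloses the microRNA gene Mir126a. Its hairpin lies at chr2:26591357-26591429 (GRCm38.p6, plus strand), inside the last of the 11 exon spans that the table gives for Egfl7. The table has no row for Mir126a. The mature sequence from RefSeq follows, with bases 2 to 8, the seed, in capitals.
mmu-miR-126a-3p: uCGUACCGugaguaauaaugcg
RefSeq promoters, from 250 bases before to 50 after a gene's start, were held for 5 of the 10 genes, with 3 for Egfl7, giving 7 promoters. They were searched on both strands for AGGAAG and CCGGAAG, cores of ETS factor motifs, and for AACAAT and AACAAAG, cores of SOX motifs. Neither motif of a family contains the other. AGGAAG was in 5 of the 7 promoters, those of 4 genes (Egfl7, Emcn, Rasip1 and Robo4), against 35.4% of 32851 promoters of the same length. AACAAT was in 1 of the 7, that of Emcn, against 10.7% of all promoters. CCGGAAG and AACAAAG were in 0 of the 7, against 8.86% and 5.85% of all. A match is a run of letters and not a shown binding site. The promoters of Emcn (chr3:137340828-137341127) and Egfl7 (chr2:26580833-26581132, the most upstream of its 3) are shown because these genes passed the test below, and that of Cldn5 (chr16:18776597-18776896) because it had no match. The most downstream Egfl7 promoter, not shown, had no match either. All 3 are on the plus strand of GRCm38.p6, and capitals mark the motifs on either strand.
Emcn promoter: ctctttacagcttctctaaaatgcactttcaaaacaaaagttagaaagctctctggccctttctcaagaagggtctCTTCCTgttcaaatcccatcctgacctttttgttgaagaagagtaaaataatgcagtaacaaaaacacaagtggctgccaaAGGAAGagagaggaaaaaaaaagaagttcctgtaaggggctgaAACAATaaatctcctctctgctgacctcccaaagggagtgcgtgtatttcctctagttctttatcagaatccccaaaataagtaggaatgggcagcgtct
Egfl7 promoter: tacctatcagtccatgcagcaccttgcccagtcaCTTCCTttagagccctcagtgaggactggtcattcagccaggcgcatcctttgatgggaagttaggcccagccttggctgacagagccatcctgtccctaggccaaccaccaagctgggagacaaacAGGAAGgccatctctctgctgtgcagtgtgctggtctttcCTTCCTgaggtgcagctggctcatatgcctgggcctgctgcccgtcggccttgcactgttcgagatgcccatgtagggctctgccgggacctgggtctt
Cldn5 promoter: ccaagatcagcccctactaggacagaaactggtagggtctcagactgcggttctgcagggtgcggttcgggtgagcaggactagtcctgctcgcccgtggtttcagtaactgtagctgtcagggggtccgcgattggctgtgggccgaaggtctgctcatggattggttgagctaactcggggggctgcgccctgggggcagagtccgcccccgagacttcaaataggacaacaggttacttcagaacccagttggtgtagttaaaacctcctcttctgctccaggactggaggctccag
In Emcn, the leftmost base of AGGAAG was at -174 on the minus strand and at -93 on the plus strand, counted from the start, and AACAAT at -50. In Egfl7, it was at -89 on the plus strand and at -216 and -49 on the minus strand. GC content was 41.0% in the Emcn promoter and 58.3% in the shown promoters of Egfl7 and Cldn5, with a median of 52.7% over all promoters. The other Egfl7 promoters had 59.0% and 67.3%.

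Library totals ran from 33846391 to 105473455 counts under the WT label and were 9370244 and 3091302 under the StauKO label, so both StauKO libraries were the shallower ones. Levels are given as CPM, counts per 1000000 counts of a library, with library sizes scaled by TMM factors. Replicates differed by more than sampling noise, with a chi-square per degree of freedom of 17.7 to 258.5. Nothing in the labels says that libraries came from separate mice, so p-values measure only the spread between these libraries, which may be technical. Stau1 itself, the targeted gene, was at 116.4 ± 11.4 CPM (SD, n = 3) under the WT label and 109.9 ± 1.19 CPM (SD, n = 2) under the StauKO label, a log2 fold change of 0.08 (edgeR adjusted p = 0.847). The 95% interval of -0.32 to 0.49 includes 0, so Stau1 RNA did not separate the labels, and the groups are named by label only. Counts over a whole gene do not show where an allele was altered, and how this allele was made is not given. The cause of the similar Stau1 levels was not tested. Pax7, the defining factor of muscle stem cells, was at 238.7 ± 26.1 and 216.2 ± 50.2 CPM in the same order (log2 fold change 0.14, adjusted p = 0.748).

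Most of the 10 genes had higher levels under the StauKO label, by 1.38-fold for Pecam1 to 2.13-fold for Egfl7 where the groups did not overlap. By the edgeR quasi-likelihood test, adjusted over all 11194 genes, 2 of the 10 were called higher there at an adjusted p under 0.05, Egfl7 and Emcn. The count of 2 was 6 with DESeq2, which called 466 of all genes higher there, and 0 with limma-voom, which called 14. DESeq2 added Cdh5, Esam, Robo4 and Rasip1. 0 of the 10 were called under the WT label by any of the 3 tools, and 8 passed edgeR's test in neither direction. Over all genes, 1.00% (112) were called higher in the libraries labelled StauKO and 1.05% (118) in those labelled WT, a split that became 143 and 93 when libraries were scaled by total counts. At an unadjusted p under 0.05, 7 of the 10 were higher under the StauKO label and 0 under the WT label, and 9.99% of all genes were higher under the StauKO label. For 7 of the 10, both StauKO libraries lay above all 3 WT libraries, against 18.1% of all genes. The reverse held for 0 of the 10 and for 20.4% of all genes. The fold change was below 0 for 9 of the 10 and for 49.7% of all genes. The median log2 fold change, WT over StauKO, was -0.74 for the 10 genes and 0.00 for all genes. Summed over the 10 genes, the level was 738.6, 493.1 and 609.1 CPM in WT 1 to 3 and 977.3 and 964.2 CPM in StauKO 1 and 2. In bulk RNA, fewer cells of a type and less RNA per cell cannot be told apart.

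**Figure D1:**
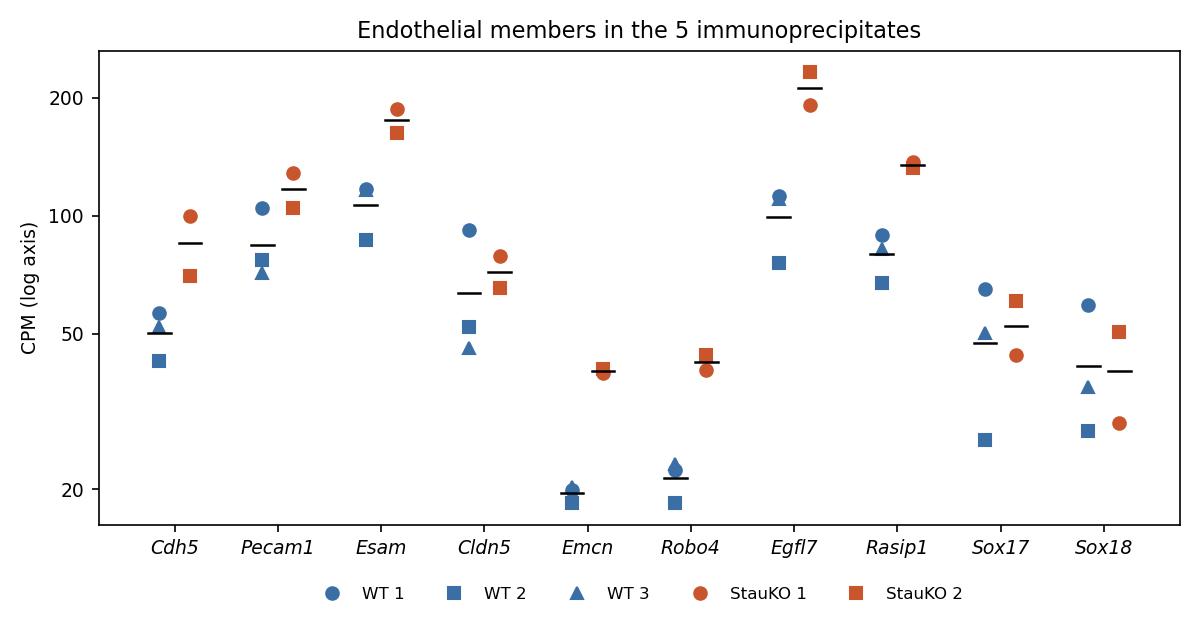
Level of each of the 10 genes (CPM, log axis) in each library; blue marks are the libraries labelled WT, orange marks those labelled StauKO, and bars are group means. Both orange marks lie above all blue marks for 7 genes, while the groups overlap for Cldn5, Sox17 and Sox18.

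Among the junction proteins, Cdh5 encodes VE-cadherin, the adhesion molecule of endothelial adherens junctions (chromosome 8, 104101625 to 104144502, plus strand, mm10). Its level was 56.3, 42.5 and 52.1 CPM in WT 1 to 3 and 100.0 and 70.0 CPM in StauKO 1 and 2. The groups did not overlap, but the StauKO libraries lay further apart than the WT libraries did. Cdh5 did not pass the test, at -0.77 on the log2 scale with an SE of 0.22 (adjusted p = 0.0818). It was -0.48 without StauKO 1, the library with the highest value.

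Pecam1 encodes PECAM-1 (CD31), an adhesion molecule of endothelial contacts that platelets and leukocytes carry too (chromosome 11, 106654217 to 106750628, minus strand). It had 104.6, 77.1 and 71.6 CPM in WT 1 to 3 and 128.7 and 105.0 CPM in StauKO 1 and 2. WT 1 and StauKO 2 were almost level, so the groups were separate by a narrow margin. Pecam1 did not pass the test, at a log2 fold change of -0.47 with an SE of 0.22 (adjusted p = 0.234). The summed level of the 3 measured platelet markers was 38.3 to 67.8 CPM under the WT label and 128.2 to 131.6 CPM under the StauKO label, and their part in Pecam1 was not tested.

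Esam encodes an immunoglobulin family adhesion molecule of endothelial tight junctions (chromosome 9, 37528078 to 37538319, plus strand). It had 117.3, 86.7 and 116.2 CPM in WT 1 to 3 against 187.6 and 162.9 CPM in StauKO 1 and 2. Every StauKO value lay well above the highest WT value. At -0.72 (SE 0.20) on the log2 scale, the difference missed the threshold (adjusted p = 0.0702).

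Cldn5 encodes claudin-5, the main claudin of endothelial tight junctions (chromosome 16, 18776847 to 18778260, plus strand, 1 exon). It had 92.1, 51.9 and 46.0 CPM in WT 1 to 3 and 78.9 and 65.2 CPM in StauKO 1 and 2. WT 1 was the highest of all 5 libraries, so the groups overlapped. The log2 fold change was -0.19 with a 95% interval of -0.79 to 0.40 (adjusted p = 0.750), which leaves room for a difference of the size seen for Esam or Cdh5.

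Emcn encodes endomucin, a sialomucin on the surface of capillary and venous endothelium (chromosome 3, 137341067 to 137432185, plus strand). It had 19.9, 18.5 and 20.3 CPM in WT 1 to 3 and 39.6 and 40.7 CPM in StauKO 1 and 2. Relative to their means, its groups had the smallest SDs of all 10 genes. Means were 19.6 ± 0.975 CPM (SD, n = 3) and 40.2 ± 0.801 CPM (SD, n = 2), a 2.05-fold difference. On the log2 scale the fitted fold change was -1.04 (SE 0.24), with an edgeR adjusted p of 0.0457, close to the threshold. limma-voom did not call it (adjusted p = 0.199). The call was also lost with any of the 5 libraries left out, with adjusted p from 0.0747 to 0.144 and log2 fold changes from -1.07 to -0.99. In StauKO 2 the value rests on 128 counts, and its 95% exact Poisson interval is 34.0 to 48.4 CPM, which covers counting error only.

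Robo4 encodes a roundabout receptor found mainly on endothelium (chromosome 9, 37401897 to 37414023, plus strand). It had 22.4, 18.5 and 23.2 CPM in WT 1 to 3 and 40.3 and 44.2 CPM in StauKO 1 and 2. The pattern was close to that of Emcn, with all StauKO values above all WT values. Robo4 was just outside the threshold, at -0.98 on the log2 scale with an SE of 0.25 (adjusted p = 0.0544). Robo4 and Esam lie on the same strand of chromosome 9 with 114054 bases between them, which hold Robo3 and Msantd2.

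Egfl7 encodes a secreted protein of the vessel wall that is made mainly by endothelial cells (chromosome 2, 26580014 to 26593120, plus strand). It had 112.4, 75.6 and 110.5 CPM in WT 1 to 3 and 191.8 and 232.5 CPM in StauKO 1 and 2. Means were 99.5 ± 20.7 CPM (SD, n = 3) and 212.1 ± 28.8 CPM (SD, n = 2), a 2.13-fold difference. It had the most negative log2 fold change of the 10 genes, -1.09 (SE 0.21), with an edgeR adjusted p of 0.0204. limma-voom did not call it (adjusted p = 0.101). The call was also lost without WT 3 (adjusted p = 0.0585) and without StauKO 2 (adjusted p = 0.0898), and held without each of the other 3 libraries. The last exon of Egfl7 shares 64 bases with Agpat2 on the opposite strand, and the strand setting of the counting is not given in the sources used here. Agpat2 had 6.42 to 18.7 CPM in the 5 libraries, with a log2 fold change of -0.24 (adjusted p = 0.814).

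Rasip1 encodes an effector of Rap1 that is needed for vessel lumens to form in mice (chromosome 7, 45627488 to 45639093, plus strand). It had 89.4, 67.5 and 82.4 CPM in WT 1 to 3 and 137.0 and 132.7 CPM in StauKO 1 and 2. The 2 StauKO values were close together and above every WT value. Its fitted value of -0.76 on the log2 scale (SE 0.20) did not pass the test (adjusted p = 0.0590).

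Sox17 encodes the SoxF factor best known for arterial endothelium (chromosome 1, 4490928 to 4496413, minus strand). It had 65.1, 26.8 and 50.3 CPM in WT 1 to 3 and 44.0 and 60.4 CPM in StauKO 1 and 2. The WT libraries spanned more than the difference between the groups, and the StauKO values fell within their range. The log2 fold change was -0.13, with a 95% interval of -0.80 to 0.55 (adjusted p = 0.866), and its sign turned without WT 2 (0.16) and without StauKO 2 (0.11).

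Sox18 encodes the SoxF factor of developing blood and lymphatic vessels (chromosome 2, 181669836 to 181671640, minus strand). It had 59.2, 28.1 and 36.5 CPM in WT 1 to 3 and 29.5 and 50.6 CPM in StauKO 1 and 2. Its extremes, WT 1 above and WT 2 below, were both WT libraries. The log2 fold change was 0.07, with a 95% interval of -0.63 to 0.76 (adjusted p = 0.930), and its sign turned without WT 1 (-0.29) and without StauKO 1 (-0.29). Sox7, the third SoxF gene, had 15.9 ± 2.60 CPM (SD, n = 3) and 15.8 ± 5.50 CPM (SD, n = 2), with an adjusted p of 0.971. It was named after its values were seen, to complete the family. None of the 3 SoxF genes was called, at this depth and with these intervals, and that does not show that their levels were equal.

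**Figure D2:**
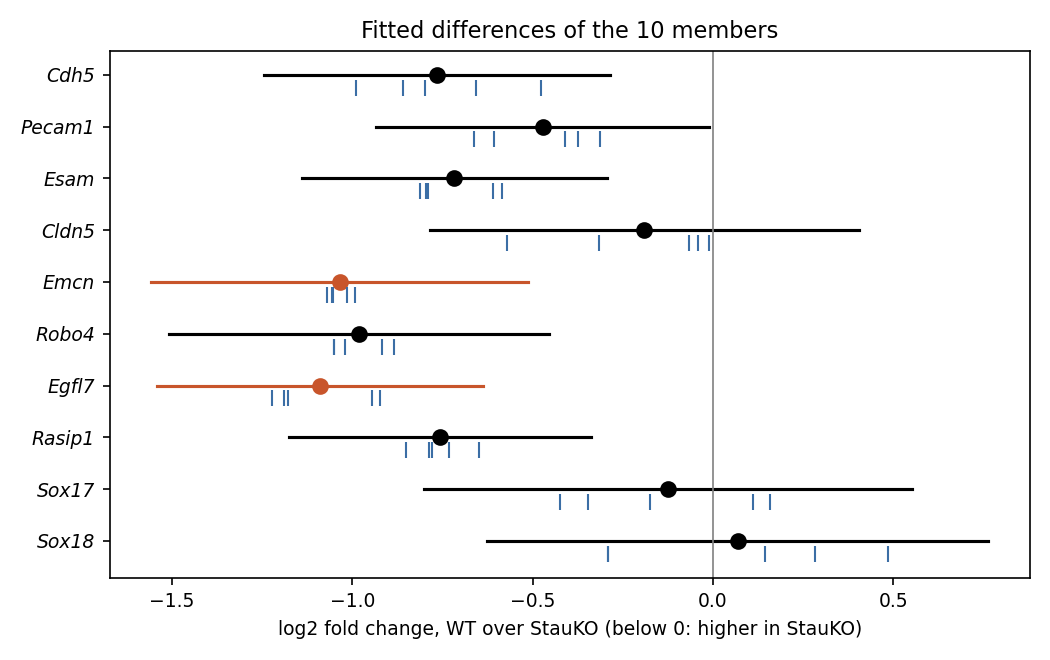
Fitted log2 fold change of each gene, WT over StauKO, with its 95% interval (dot and line); blue ticks are the values with each library left out. Egfl7 and Emcn, in orange, passed the adjusted threshold, and the intervals of Cldn5, Sox17 and Sox18 include 0.

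Per kilobase of the deposited gene length, the 10 genes ranged widely. In the libraries labelled WT, Cldn5 had the highest level, 44.8 ± 17.7 CPM per kilobase (SD, n = 3), followed by Esam at 37.2 ± 6.06. Egfl7 (27.8 ± 5.79), Sox18 (25.5 ± 9.91) and Rasip1 (24.9 ± 3.49) came next in CPM per kilobase and differed from each other by less than their spread. Sox17 (15.0 ± 6.12), Pecam1 (13.6 ± 2.84) and Cdh5 (12.6 ± 1.78) also lay within their spread on that scale. Robo4 (5.20 ± 0.615) and Emcn (3.62 ± 0.180) were the lowest in CPM per kilobase. In the libraries labelled StauKO, Esam (61.1 ± 6.09) and Egfl7 (59.2 ± 8.05) were highest and stood level within their spread. Cldn5 (50.9 ± 6.82), Rasip1 (42.1 ± 0.955), Sox18 (24.7 ± 9.19), Cdh5 (21.3 ± 5.33), Pecam1 (18.8 ± 2.69) and Sox17 (16.6 ± 3.69) followed. Robo4 (10.3 ± 0.671) and Emcn (7.42 ± 0.148) were again lowest, all in CPM per kilobase with n = 2. The length covers all exons of a gene in the table, so a gene with little used exons is set too low.

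The libraries of a group were not alike. WT 2 had the lowest value of all 5 libraries for 8 of the 10 genes, Pecam1 and Cldn5 being the exceptions, against 12.3% of all genes. Averaged over the 10 genes, log2 CPM centred on each gene's mean was 0.04, -0.55 and -0.24 in WT 1 to 3 and 0.36 and 0.40 in StauKO 1 and 2. The mean of 40 other endothelial markers followed with -0.06, -0.44 and -0.38, and with 0.50 and 0.38. Among genes outside the group with a mean log2 CPM of at least 3, the 5 nearest to the mean profile of the 10 were Thsd7a, Amer1, Lxn, Prr13 and Prkd1. Their root mean square distances were 0.0463 to 0.0679 on the log2 scale over the 5 libraries, and 0 of them were called (adjusted p from 0.187 to 0.380). Rasip1 was the nearest of the 10 genes themselves, at a distance of 0.0953, and Sox18 the farthest, at 0.430.

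Endothelial markers outside the group were called in the same direction. Of 40 measured endothelial markers outside the group, 12 were called higher under the StauKO label and 28 were not called. DESeq2 called 24 of the 40 higher there, and limma-voom 2. 0 were called under the WT label by edgeR, DESeq2 or limma-voom, and 0 had an unadjusted p under 0.05 in that direction. Their median log2 fold change was -0.79. The edgeR count was 2 without WT 3, 4 without StauKO 1 and 7 without StauKO 2. Ushbp1 had 35.7, 34.1 and 28.6 CPM in WT 1 to 3 and 94.1 and 101.5 CPM in StauKO 1 and 2 (edgeR adjusted p = 0.00365). It was called with each library left out. Nos3, the endothelial nitric oxide synthase, was 2.04-fold, Icam2, an adhesion molecule, 2.02-fold and Mmrn2, a matrix protein of vessels, 2.01-fold higher. Each was called with all 5 libraries, but Icam2 and Mmrn2 in 0 of 5 fits that left out a library, and Nos3 was not called without WT 1, WT 3 or StauKO 1. Of 13 capillary markers 6 were called higher in the libraries labelled StauKO (median -0.89), against 0 of 11 arterial (median -0.17), 0 of 10 venous (median -0.23) and 0 of 8 lymphatic markers (median 0.03). At an unadjusted p under 0.05, 10 capillary markers were higher under the StauKO label and 1 under the WT label, and each of the other 3 lists had 2 and 1. DESeq2 called 10 capillary, 1 arterial and 2 lymphatic markers higher under the StauKO label and 1 venous marker higher under the WT label. limma-voom called 1 capillary marker higher under the StauKO label and 0 of the other 3 lists. The lists share genes with each other, differences between them were not tested, and the names of the lists come from background knowledge. The called capillary markers Fabp4, Cd36, Ly6c1, Btnl9 and Aqp1 are also among the 40 endothelial markers. Vcam1, the venous marker with an unadjusted p under 0.05 in the WT direction, is also in the list of muscle stem cell markers.

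Partners of these proteins, many of them used by other cell types too, had medians near 0. Of 36 measured junction partners, such as catenins, zonula occludens proteins and connexins, 1 was called higher under the WT label and 0 under the StauKO label (edgeR), with a median of -0.04. At an unadjusted p under 0.05, 5 were higher under the StauKO label and 2 under the WT label. DESeq2 called 3 and 1 in the same order, and limma-voom 0. The called gene was Ctnnd1, p120-catenin, which binds cadherins at the membrane, with 73.5, 69.6 and 72.9 CPM in WT 1 to 3 and 36.5 and 30.5 CPM in StauKO 1 and 2. Its direction was opposite to that of Cdh5's values (log2 fold change 1.09, SE 0.22, adjusted p = 0.0236), and the call was lost without WT 1, WT 3 or StauKO 2 (adjusted p from 0.0763 to 0.0913). Jam2, an endothelial junction molecule, and Ptprb, the phosphatase that binds VE-cadherin, had log2 fold changes of -1.04 and -0.90 and missed the threshold (adjusted p = 0.0533 and 0.0544).

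Of 24 measured signalling partners of Rasip1 and Robo4, 1 was called higher under the StauKO label, with a median of 0.08. DESeq2 called 1 in each direction and limma-voom 0. It was Rapgef3 (Epac1), an exchange factor that activates Rap1 in response to cyclic AMP. Rapgef3 had 14.6, 18.8 and 29.2 CPM in WT 1 to 3 and 53.2 and 85.6 CPM in StauKO 1 and 2, a log2 fold change of -1.72 (SE 0.30, adjusted p = 0.0152). The call was lost without WT 1 (adjusted p = 0.0507) and without StauKO 2 (adjusted p = 0.0690). Rap1a and Rap1b, the GTPases themselves, had log2 fold changes of 0.05 and 0.42 (adjusted p = 0.921 and 0.290). They were named after their values were seen, as the GTPases whose signal Rasip1 carries.

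Of 29 endothelial transcription factors and Notch genes, 1 was called higher under the StauKO label and 0 under the WT label (edgeR), with a median of -0.22. At an unadjusted p under 0.05, 9 were higher under the StauKO label and 3 under the WT label. DESeq2 called 6 higher under the StauKO label and 0 under the WT label, and limma-voom 0. The called gene was Elk3, an ETS family factor, with 28.5, 34.3 and 22.7 CPM in WT 1 to 3 and 67.0 and 68.1 CPM in StauKO 1 and 2 (log2 fold change -1.25, SE 0.23, adjusted p = 0.0189). Its call was lost without WT 1 and without WT 3 (adjusted p = 0.0603 and 0.0810). Notch4, an endothelial Notch receptor, and Bcl6b, a repressor found in endothelium, had log2 fold changes of -1.04 and -1.14 and were not called (adjusted p = 0.0523 and 0.0624). Fli1 and Erg, the ETS factors most tied to endothelial identity, were named after their values were seen. Fli1 had 9.86 ± 4.47 CPM (SD, n = 3) and 25.3 ± 10.1 CPM (SD, n = 2), and Erg 9.66 ± 3.09 and 18.5 ± 0.582 CPM, neither being called (adjusted p = 0.0881 and 0.165).

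Markers of other cell types differed between the groups as well. Of 17 muscle stem cell markers 4 were called higher in the libraries labelled WT (median 0.58), and their summed level was 7652 to 8440 CPM there and 4856 to 4946 CPM in those labelled StauKO. DESeq2 called 8 of them and limma-voom 0. Of 5 red blood cell genes 3 were called higher in the libraries labelled StauKO, with summed levels of 220.8 to 300.9 CPM under the WT label and 481.9 to 824.9 CPM under the StauKO label. DESeq2 called 4 of them and limma-voom 0. The 3 measured platelet markers were Itga2b, Pf4 and Gp1bb, and their summed level was 38.3 to 67.8 and 128.2 to 131.6 CPM. Itga2b, integrin alpha-IIb of platelets, was the platelet marker called (33.8 ± 14.8 against 99.0 ± 0.543 CPM, adjusted p = 0.0165), and its call was lost without WT 1 (adjusted p = 0.0560) and without WT 3 (adjusted p = 0.0671). Of 14 pericyte and smooth muscle markers and 16 macrophage and leukocyte markers 0 were called, with medians of -0.32 and -0.29. At an unadjusted p under 0.05, 4 of the former were higher under the StauKO label and 2 under the WT label, against 0 and 1 of the latter. DESeq2 called 1 of the former in each direction and 1 of the latter higher under the WT label, and limma-voom 0. Of 17 fibro-adipogenic progenitor markers 2 were called higher in the libraries labelled WT and 1, Ly6a, in those labelled StauKO. Ly6a is also in the list of endothelial markers. Of the progenitor markers DESeq2 called 4 higher under the WT label and 1 under the StauKO label, and limma-voom 1 and 0. Of 17 muscle fibre genes 1 was called higher in the libraries labelled StauKO (Casq1), and their summed level was 1091 to 1204 CPM under the WT label, 983.7 CPM in StauKO 1 and 3684 CPM in StauKO 2. StauKO 1 was thus below every library labelled WT, and StauKO 2 was the 1 library with a high level. Of 8 Schwann cell markers 1 was called higher there (Mbp). DESeq2 called 1 platelet, 2 muscle fibre and 2 Schwann cell markers higher under the StauKO label, and limma-voom 1 Schwann cell marker. The part of these cell types in the values of the 10 genes was not tested.

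**Figure D3:**
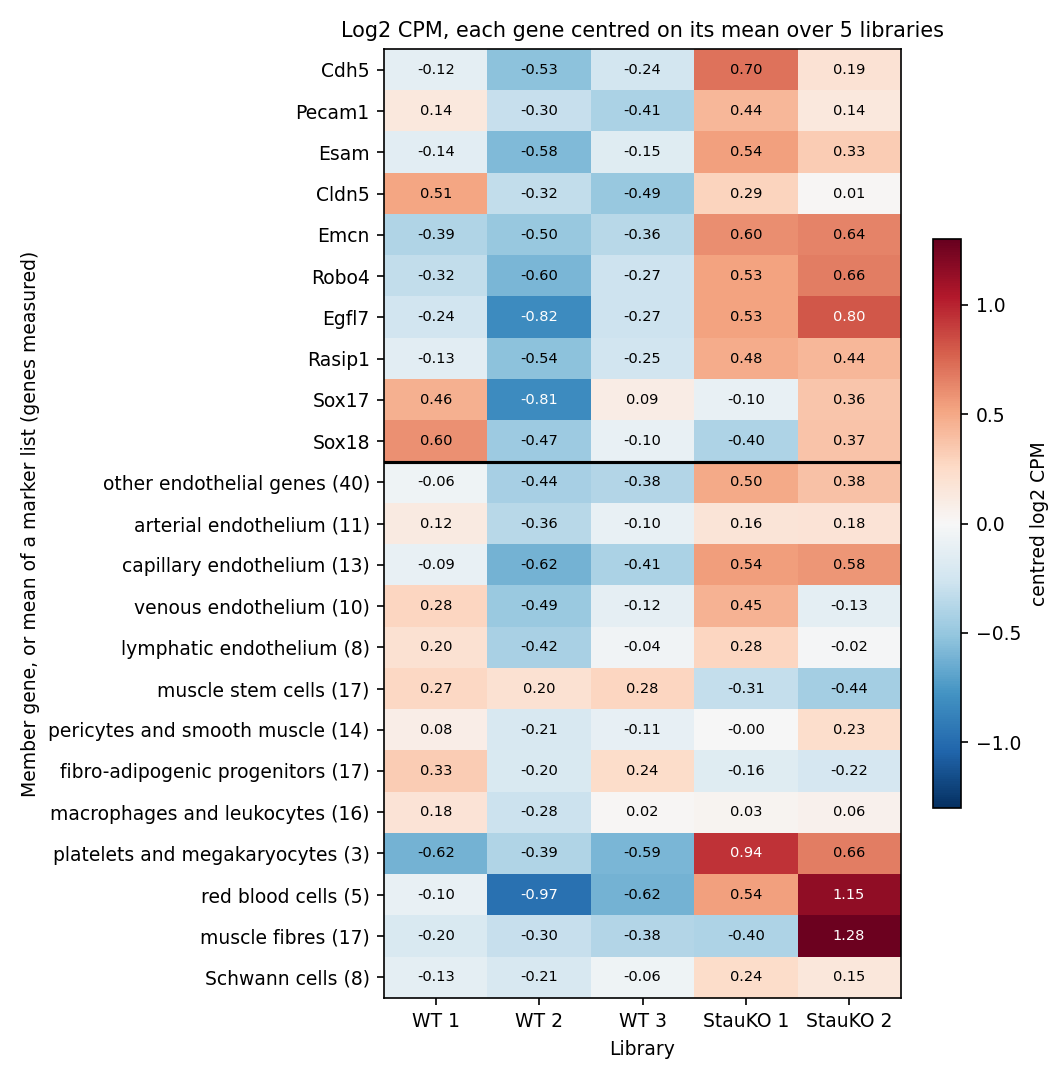
Log2 CPM centred on each gene's mean over the 5 libraries, for the 10 genes (upper block) and averaged over marker lists of cell types (lower block, with the genes measured in each). For 7 genes both StauKO libraries are above all WT libraries, the muscle stem cell list is higher in the 3 WT libraries, and the muscle fibre list stands out in StauKO 2.

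To describe how the 10 genes vary among themselves, each was also expressed per 1000 counts of the 40 other endothelial markers in the same library. On this scale Rasip1 was nearly constant, at 24.0, 24.1 and 25.9 in WT 1 to 3 and 24.1 and 24.0 in StauKO 1 and 2. Esam and Cdh5 overlapped between the groups, with 31.5, 30.9 and 36.5 against 33.0 and 29.5 for Esam, and 15.1, 15.2 and 16.3 against 17.6 and 12.7 for Cdh5. Egfl7 had 30.1, 27.0 and 34.7 against 33.8 and 42.1 counts per 1000. Emcn was the 1 gene of the 10 with both StauKO libraries above all WT libraries (6.97 and 7.38 against 5.35 to 6.59), against 1.14% of all genes. The 40 markers were themselves higher under the StauKO label, with summed levels of 2801 to 3729 CPM in WT and 5521 to 5680 CPM in StauKO. Without the 5 most abundant they had 1599 to 2139 and 2735 to 2849 CPM. Dividing by them lowers most genes under the StauKO label, so shares of all genes in Emcn's direction are small by construction. Sox18 had 15.9, 10.0 and 11.5 against 5.20 and 9.16, and Cldn5 had 24.7, 18.5 and 14.4 against 13.9 and 11.8. For these 2 genes all WT libraries were above both StauKO libraries, as for 66.4% of all genes on this scale. Sox17 overlapped, with 17.5, 9.58 and 15.8 against 7.74 and 10.9. An exact two-sided permutation test of the 5 libraries cannot go below p = 0.2 and so no difference on this scale could pass a threshold of 0.05. With the 5 most abundant markers (Aqp1, Fabp4, Gpihbp1, Ly6a and Ly6c1) left out of the denominator, Sox18 and Cldn5 overlapped between the groups, as did Cdh5, Pecam1, Esam and Sox17. Emcn, Robo4, Egfl7 and Rasip1 had both StauKO libraries above all WT libraries, against 2.15% of all genes on that scale, and 54.6% of all genes had the reverse.

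**Figure D4:**
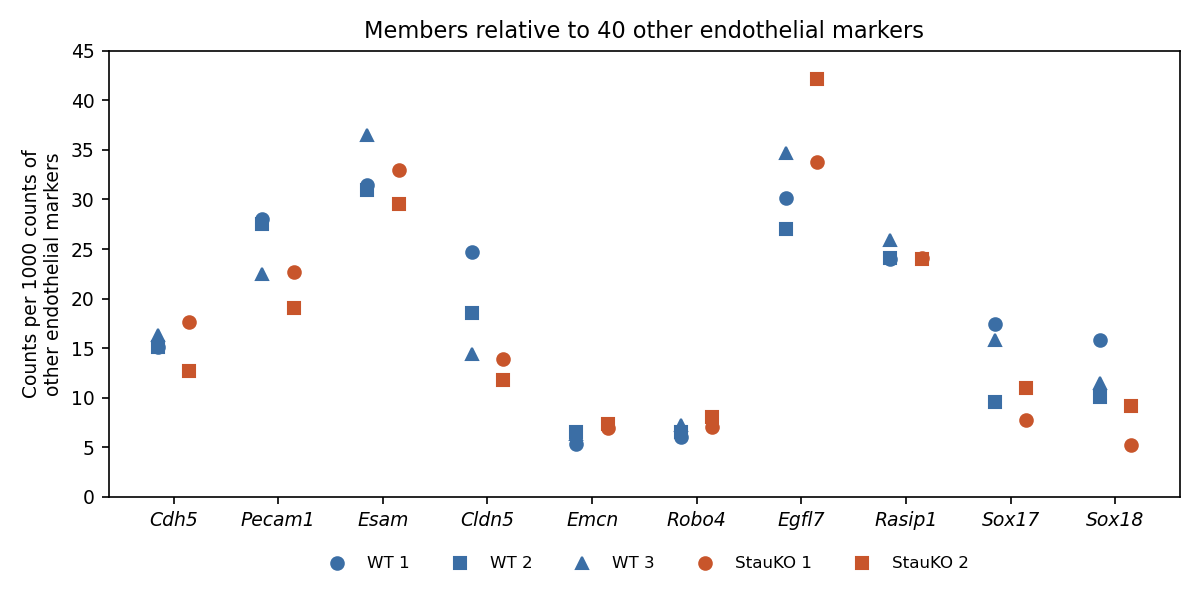
Counts of each gene per 1000 counts summed over 40 other endothelial markers, per library (vertical axis from 0). Rasip1 stays between 24.0 and 25.9 in all 5 libraries, while Sox18 and Cldn5 have their lowest values in the libraries labelled StauKO.

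The SoxF genes were also set against the other 8 genes within each library, a ratio chosen after the values had been seen. Sox17 and Sox18 together had 202.2, 125.4 and 166.3 counts per 1000 counts of the other 8 in WT 1 to 3, and 81.3 and 130.1 in StauKO 1 and 2. The groups overlapped, since StauKO 2 exceeded WT 2. Sox18 alone had 96.3, 64.2 and 70.0 against 32.7 and 59.3 per 1000, with all WT libraries above both StauKO libraries, as for 62.6% of all genes on this scale. The exact two-sided permutation test, which cannot go below 0.2, gave p = 0.4 for Sox17 and Sox18 together and 0.2 for Sox18 alone. No conclusion is drawn from it, since the 8 genes of the denominator were seen to be mostly higher under the StauKO label. Between the SoxF genes, Sox18 had 909.2, 1049 and 725.9 counts per 1000 counts of Sox17 in WT 1 to 3 and 671.4 and 836.8 in StauKO 1 and 2, and the groups overlapped.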

How the data were processed

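RNA precipitated with an anti-Staufen1 antibody from mouse muscle stem cells was sequenced in 3 libraries labelled WT and 2 labelled StauKO. Per the labels' protocols, RNA was copied with oligo(dT) priming, amplified and read as 101 bp pairs. The authors deposited raw counts per gene, whole numbers made with Trim Galore, STAR and featureCounts (Subread), per the submitters' processing notes, on mm10. Tool versions, annotation release and the strand setting: not given in the sources used here. The deposited table appears filtered: the third-highest CPM of a gene was never below 3.00. The deposited gene length in bases was used as given.

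Counts were analysed in R 4.3.3 with edgeR 4.0.16: filterByExpr (0 genes removed), TMM, estimateDisp, glmQLFit and glmQLFTest (two-sided) between the labels. Benjamini-Hochberg adjustment ran over all genes, at 0.05. Adjusted p-values are from this test unless another is named. The scripts were tested on simulated data. There the edgeR test recovered 42% of genes given an absolute log2 fold change of 1, and 90% of those given 2. Alternatives used DESeq2 1.42.0, limma 3.58.1, other scalings and filters, thinning to 3091302 counts, the replicate number as a block, and each library left out. Names were matched through Entrez identifiers to RefSeq (GRCm38.p6), 10 of 10 for the genes described.

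The 10 genes, the 16 lists and the naming rule were chosen with earlier results of these data known. The rule names the 10 genes, Stau1, genes overlapping them, the 3 smallest p and all calls of each list, and the 5 genes nearest in profile; the text gives those it needs. Centred log2 values use a prior count of 2.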

Additional observations from a re-analysis of the deposited data

How the results depend on the processing

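Cdh5, Pecam1, Esam, Cldn5, Emcn, Robo4, Egfl7 and Rasip1 kept their direction in all 14 alternatives. The median of the 10 genes lay between -0.82 and -0.54. 6 of the 10 genes were called higher in the libraries labelled StauKO with DESeq2 (466 of all genes higher there, 434 in WT) and 0 with limma-voom (14 and 8). With the replicate number as a block, 5 were called (324 and 288 of all genes), Esam, Robo4 and Rasip1 being added. Deviations of same-numbered libraries from their group means were nearly uncorrelated (0.0496 and 0.0401). With 2 StauKO libraries these deviations mirror each other, so the correlations are not independent. They cannot show whether same-numbered libraries were prepared together. With total counts 3 were called. With each library left out, 0 to 1 of the 10 were called, and over all genes 23 to 172 higher in StauKO and 11 to 176 in WT. Where a StauKO library was left out, the other is assumed to vary as the WT libraries do. Relative to the other endothelial markers, 2 of the 10 genes had all WT libraries above both StauKO libraries, against 66.4% of all genes. The count became 0 without the 5 most abundant markers, against 54.6% of all genes. It ran from 2 to 5 with a library left out, where the share of all genes was not computed.

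Directions turned for genes that were not called with all 5 libraries. With each library left out, Sox17 ran from -0.43 to 0.16 (0.11 without StauKO 2, 0.16 without WT 2) and Sox18 from -0.29 (without StauKO 1, -0.29 without WT 1 too) to 0.49. Sox7 ran from -0.31 to 0.41 (-0.12 without WT 1), and was at -0.14 after thinning and -0.012 with total counts. Pax7 ran from -0.077 to 0.40. Ackr1 ran from -1.81 (without StauKO 2) to 0.56 (without StauKO 1), and Mylpf from -2.69 (without StauKO 1) to 0.014 (without StauKO 2). Not being called refers to the fit of all libraries and not to these fits. The causes were not tested. Depth limits StauKO 2 most, where a count of 0 allows up to 0.954 CPM.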
